A study of Mus musculus with 12 samples.

Results

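The genes described here encode the subunits of the transcription factor NF-κB and the proteins that hold it in check, measured as messenger RNA in 4T1 cells, which come from a triple-negative breast tumour of the mouse. The 10 members were chosen by gene symbol: the 4 subunit genes Rela, Relb, Nfkb1 and Nfkb2, and the 6 genes for inhibitors and inhibitor-like proteins, Nfkbia, Nfkbib, Nfkbie, Nfkbiz, Bcl3 and Tnfaip3. Each symbol had 1 entry among the 78317 genes of the table, and all 10 were among the 14012 genes with enough counts to be tested. The 4 groups were PBRM1 KO cells with TGFβ1, PBRM1 KO cells without it, control cells with TGFβ1 and control cells without it, each with n = 3 biological replicates. Treated wells received 5 ng/ml TGFβ1 for 4 days, and the untreated samples carry the time 0 h in their titles although the protocol describes the same culture without TGFβ1. The library names mark control and knockout cells by their guide RNAs; whether the knockout was 1 clone or a pool, and which exon was cut, is not given in the sources used here.

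NF-κB is a dimer of Rel family proteins that waits in the cytoplasm bound to an inhibitor of the IκB family. Signals such as tumour necrosis factor, interleukin 1 or CD40 ligand activate a kinase complex that marks the inhibitor for destruction, after which the dimer enters the nucleus. Several of its own inhibitors are among its target genes, which makes the pathway self-limiting. PBRM1 carries several bromodomains and belongs to PBAF, a chromatin remodelling complex, and TGFβ1 is a cytokine that signals through SMAD proteins.

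Transcripts were counted at their 3′ ends after removal of duplicates, with 9265693 to 11250850 counts per library, and levels are given as CPM, a gene's counts scaled to a common library total. Pbrm1 itself lay between 207 and 274 CPM in the 6 PBRM1 KO libraries and between 258 and 328 CPM in the 6 control libraries (log2 −0.25 ± 0.10 with TGFβ1 and −0.33 ± 0.10 without it, edgeR adjusted p = 0.513 and 0.349). A 3′ count need not read the edited part, so this value checks neither the edit nor the protein. TGFβ1 replicate 3 stood apart in both genotypes. Its shift from the untreated mean of its own genotype was projected, over the tested genes other than the 10, on the shift that TGFβ1 replicates 1 and 2 showed in the opposite genotype, so that 0 is no shift and 1 the whole of it; it lay at 0.393 in PBRM1 KO cells and 0.314 in control cells. The other TGFβ1 libraries lay between 0.807 and 0.952 on that scale, and untreated libraries between −0.0488 and 0.0943. Counts of genes called are therefore given with and without both of these libraries, and so are the members whose call changed. Epithelial markers summed to 1634 to 2428 CPM in all 12 libraries, as a carcinoma line would have, although Krt5, a basal keratin gene, had no more than 0.142 CPM. That sum was lower with TGFβ1 in both genotypes (1903 to 2007 against 2200 to 2358 CPM in PBRM1 KO cells, and 1634 to 1892 against 2321 to 2428 CPM in control cells). Of the 6 markers tested, 2 had a log2 change above 0 in each genotype, Krt14 and Epcam, with 0 called higher. Krt14 averaged 35.4 CPM with TGFβ1 and 7.41 CPM without it in PBRM1 KO cells, and 55.2 and 20.6 CPM in control cells. The part of these markers in the changes below was not tested. The 11 leukocyte markers summed to 6.87 to 10.4 CPM, with 3 or 4 of them at 0 in each group, S100a9 at 0 in every library and Ptprc at no more than 0.181 CPM. Cd68 and Lyz2 were counted in all 12 libraries, at 3.62 to 7.83 and 1.17 to 2.58 CPM, and made up most of that sum. The 7 fibroblast markers summed to 29.5 to 65.1 CPM with TGFβ1 and 28.4 to 39.2 CPM without it in PBRM1 KO cells, and to 34.1 to 109 CPM with TGFβ1 and 35.3 to 50.0 CPM without it in control cells, and their part in the changes was not tested either.

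TGFβ1 raised a few of these genes and lowered none at the threshold used, an edgeR adjusted p below 0.05 over all tested genes. In PBRM1 KO cells 2 of the 10 rose, Nfkbiz and Nfkbie, against 7.65% of all tested genes called higher and 3.72% called lower. In control cells 2 of the 10 rose, Nfkbiz and Nfkb1, against 5.89% called higher and 2.91% called lower. Without both TGFβ1 replicate 3 libraries 4 of the 10 were called higher in PBRM1 KO cells, against 16.0% of all tested genes called higher and 12% lower, and 6 of the 10 in control cells, against 13.9% higher and 10.0% lower. The median log2 change over the 10 genes was 0.23 in PBRM1 KO cells and 0.20 in control cells, where the median of all tested genes was −0.00 and 0.00. Loss of PBRM1 went with a change in 1 member: Nfkbiz was lower in PBRM1 KO cells without TGFβ1, where 0.236% of all tested genes were called lower and 0.0428% higher. With TGFβ1 no member passed the test between the genotypes (0 of 10 with edgeR, DESeq2 and limma-voom alike, with 4 at an unadjusted p below 0.05 in edgeR), against 0.2% of all genes called lower and 0.0714% higher. No member passed the test of whether the TGFβ1 response differed between genotypes (0 of 10 by the same tools, with 1 at an unadjusted p below 0.05 in edgeR), where 0% of all genes were called. Leaving out both TGFβ1 replicate 3 libraries gave the same member counts between genotypes, 1 lower without TGFβ1 (1.02% of all genes called lower and 0.393% higher) and 0 with it (0.386% lower and 0.147% higher). The comparison without TGFβ1 holds neither of these libraries. There the omission changed only the spread, scaling and filter that the fit shares between groups, so it is no check of that call.

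**Figure D1:**
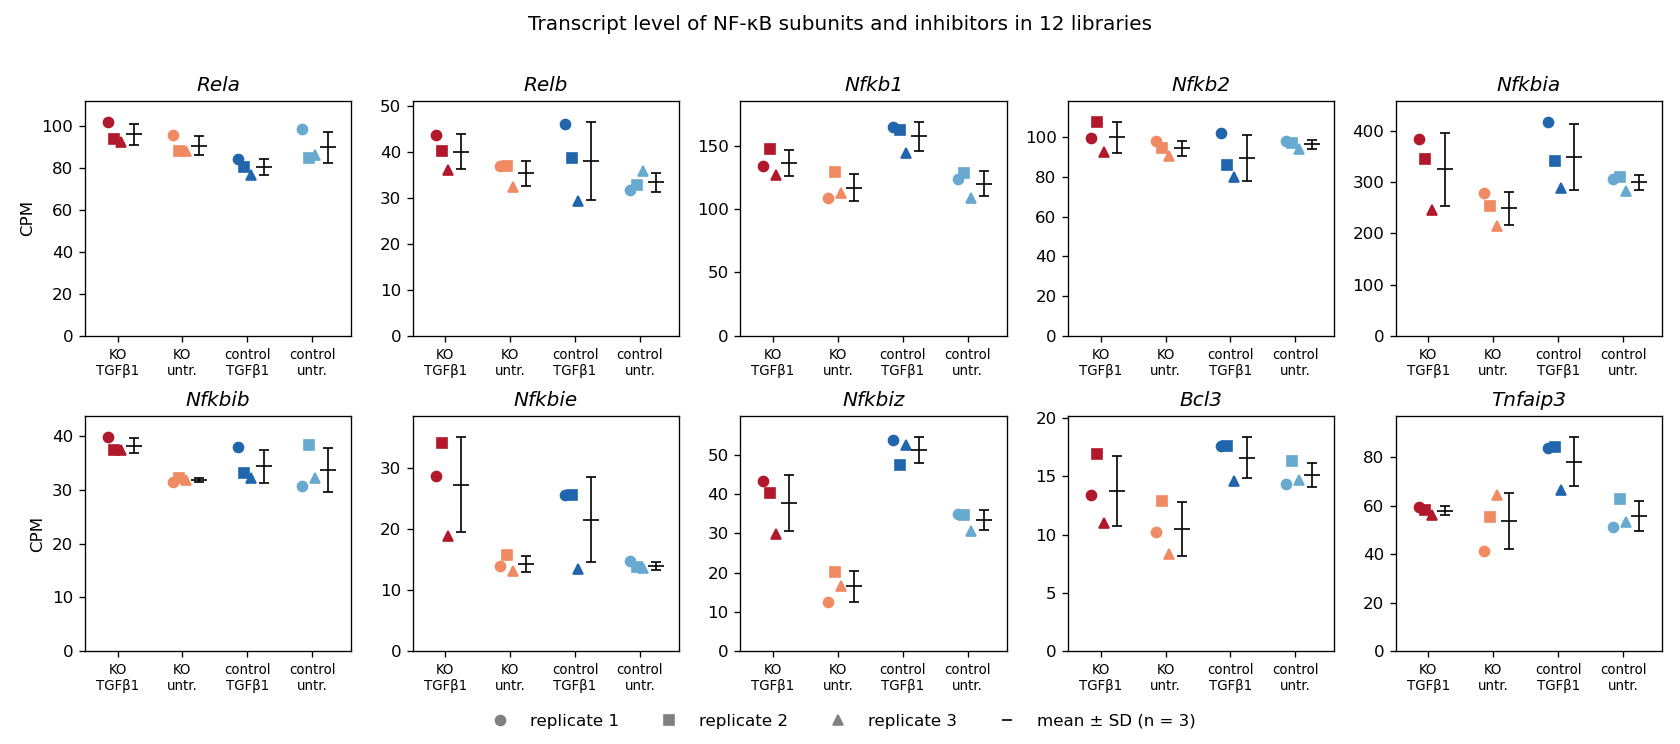
Transcript level in CPM, on axes that start at 0, of the 10 genes in each of the 12 libraries, with the mean and SD of each group (n = 3). Nfkbiz had its lowest group in untreated PBRM1 KO cells (12.5 to 20.3 CPM), and Nfkbie its highest 2 values in PBRM1 KO cells with TGFβ1 (28.7 and 34.1 CPM).

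Nfkbiz (ENSMUSG00000035356) carried the clearest pattern. It encodes IκBζ, an inducible nuclear member of the IκB family that joins p50 on DNA and is known in mouse cells as a cofactor for a subset of NF-κB targets, among them Lcn2. It was counted at 43.3, 40.4 and 29.8 CPM in PBRM1 KO cells with TGFβ1, against 12.5, 20.3 and 16.7 CPM in untreated PBRM1 KO cells. In control cells the values were 53.7, 47.6 and 52.4 CPM with TGFβ1 and 34.9, 34.8 and 30.5 CPM without it. Treated and untreated libraries did not overlap in either genotype, and at either treatment all 3 PBRM1 KO libraries lay below all 3 control libraries.

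TGFβ1 raised Nfkbiz by log2 1.18 ± 0.16 in PBRM1 KO cells (adjusted p = 0.000716), and the call held in all 6 fits that left out 1 library of that comparison (highest adjusted p = 0.00543). In control cells it rose by log2 0.61 ± 0.15 (adjusted p = 0.0268). That call was lost when any library other than TGFβ1 replicate 3 was left out (highest adjusted p = 0.106), with log2 values between 0.56 and 0.66. In those fits 1.84% to 3.09% of all genes were called higher, against 5.89% with all libraries. Without TGFβ1, Nfkbiz fell by 1.02 on the log2 scale in PBRM1 KO cells (SE 0.16, adjusted p = 0.0186), to a mean of 16.5 ± 3.88 CPM against 33.4 ± 2.49 CPM in control cells (SD, n = 3 each). Leaving out untreated control replicate 1 or 2, or untreated PBRM1 KO replicate 1 or 3, ended that call (adjusted p up to 0.118). The log2 value in these fits stayed between −1.03 and −0.85. Those fits called 0.0558% to 0.0978% of all genes lower, against 0.236% with all libraries. With TGFβ1 the means were 37.8 ± 7.14 CPM in PBRM1 KO cells and 51.2 ± 3.25 CPM in control cells, a difference of log2 −0.45 ± 0.15 that did not pass (adjusted p = 0.366). Without both TGFβ1 replicate 3 libraries that difference was −0.29 (adjusted p = 0.593), and the TGFβ1 rises were 1.32 in PBRM1 KO cells and 0.59 in control cells (adjusted p = 7.66e-06 and 0.00578).

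By mean level the 4 groups ran from control cells with TGFβ1 through PBRM1 KO cells with TGFβ1 and untreated control cells to untreated PBRM1 KO cells. The middle pair overlapped: PBRM1 KO cells with TGFβ1 spanned 29.8 to 43.3 CPM and untreated control cells 30.5 to 34.9 CPM. The TGFβ1 response of Nfkbiz was larger in PBRM1 KO than in control cells by log2 0.57 ± 0.22. This difference had an unadjusted p = 0.0238 and did not pass adjustment over all genes (adjusted p = 1.00). Because the libraries are bulk RNA, fewer cells expressing the gene and less RNA per cell cannot be told apart.

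Among 8141 other genes with a plain symbol and a mean of at least 10 CPM, those with the pattern most like Nfkbiz over the 12 libraries were Ntaq1, Stom and Acsbg1. Likeness was the root mean square difference of TMM-scaled log2 CPM after centring each gene on its mean, and it was 0.212, 0.228 and 0.237, beside an SD of 0.66 for Nfkbiz itself. Ntaq1 averaged 27.1 CPM in PBRM1 KO cells with TGFβ1, 13.7 CPM in untreated PBRM1 KO cells, 39.2 CPM in control cells with TGFβ1 and 21.7 CPM in untreated control cells, the same order as Nfkbiz except that its middle groups were farther apart.

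**Figure D2:**
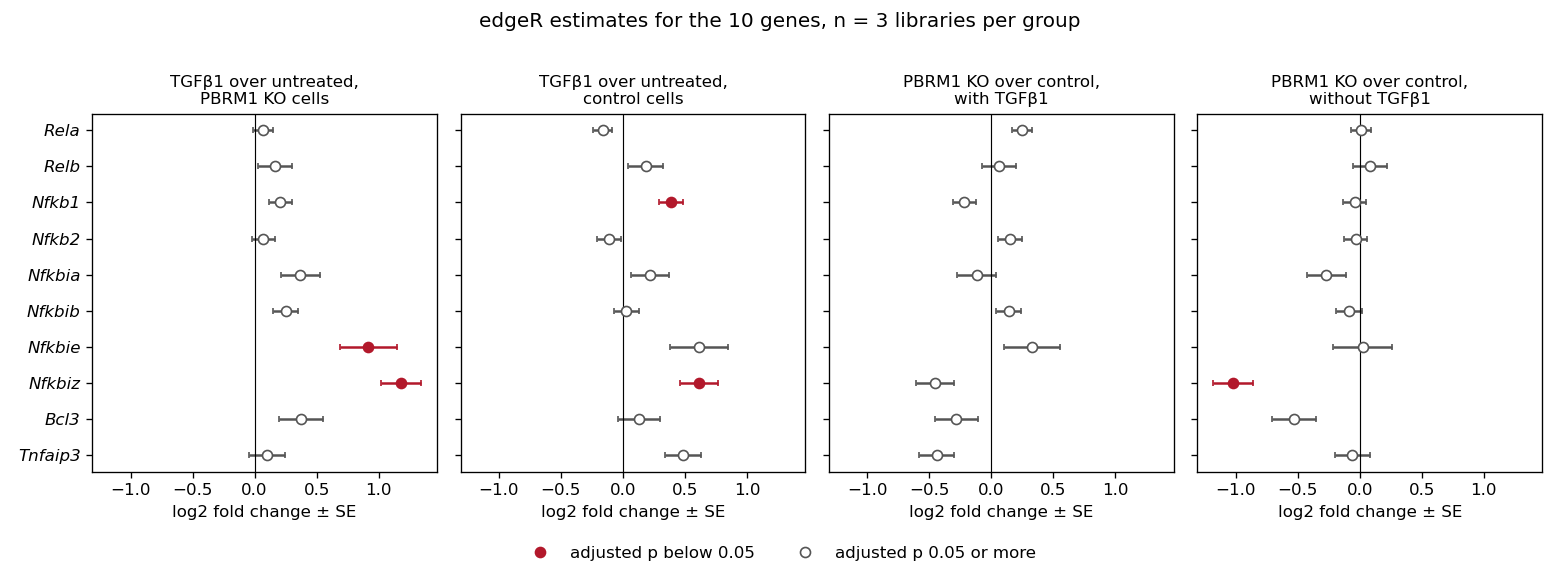
The log2 fold change of each gene in 4 comparisons, with the standard error from the edgeR fit (n = 3 libraries per group); filled points passed an adjusted p of 0.05. Nfkbiz is the only one of the 10 genes filled in 3 of the 4 panels, at 1.18 and 0.61 with TGFβ1 and at −1.02 in PBRM1 KO cells without it.

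Several inhibitor genes are known targets of NF-κB, so their promoters were read for its binding motif. Windows from 250 bases before to 50 after the transcription start were taken from RefSeq (build GRCm38.p6), where 7 of the 10 genes had 10 windows; Nfkb1, Relb and Nfkbiz had none. Both strands were searched for GGNNTTTCC, a form of the κB site to which NF-κB binds, and for the κB consensus by name; the 2 motifs overlap. At least 1 of them was found in the windows of 5 members, Nfkb2, Nfkbia, Nfkbie, Bcl3 and Tnfaip3, and in none of Rela and Nfkbib. Among all 32851 windows, 12.8% held at least 1, 5.82% the short form and 8.46% the consensus. The members are counted by gene, some with several windows, and these shares by window, so they are not directly comparable. Windows 2 and 3 of Nfkb2 overlap and hold the same match. A match of letters is not evidence of binding. The stretches that follow are shown for Nfkbie, which rose in PBRM1 KO cells as Nfkbiz did but, unlike Nfkbiz, has a window. They are also shown for Nfkbia and Tnfaip3, feedback inhibitors whose TGFβ1 calls changed with the settings. Capitals mark the κB matches, and each stretch runs 5′ to 3′ along the gene's strand.
Nfkbie, chr17:45555564-45555633, plus strand: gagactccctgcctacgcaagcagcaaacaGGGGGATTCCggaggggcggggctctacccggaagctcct
Nfkbia, chr12:55492648-55492706, minus strand: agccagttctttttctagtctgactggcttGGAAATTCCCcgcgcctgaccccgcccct
Tnfaip3, chr10:19015411-19015464, minus strand: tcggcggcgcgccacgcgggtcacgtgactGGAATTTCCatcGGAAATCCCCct

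The AP-1 motif TGANTCA was found in 7.81% of all windows and, among the members, in those of Nfkb2, Nfkbie and Tnfaip3. The SMAD motif CAGACA, in 21.0% of all windows, was found for Bcl3 alone of the 7 genes. Here too the shares are by window and the members are given by gene.

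Nfkbie (ENSMUSG00000023947), which encodes IκBε, an inhibitor that is itself induced by NF-κB, was counted at 28.7, 34.1 and 18.8 CPM in PBRM1 KO cells with TGFβ1, against 13.9, 15.7 and 13.1 CPM in untreated PBRM1 KO cells. The groups did not overlap, and Nfkbie rose by log2 0.91 ± 0.23 (adjusted p = 0.0224). Control cells had 25.5, 25.5 and 13.4 CPM with TGFβ1 and 14.7, 13.7 and 13.5 CPM without it. There TGFβ1 replicate 3 lay below all untreated libraries, and the difference of log2 0.61 ± 0.23 did not pass (adjusted p = 0.125). With all libraries kept it passed without the filter on low counts (adjusted p = 0.00214) and with the replicate block (adjusted p = 0.0269). Without both TGFβ1 replicate 3 libraries Nfkbie was higher in both genotypes, by log2 1.11 in PBRM1 KO cells and 0.85 in control cells (adjusted p = 5.62e-06 and 0.000126). The call in PBRM1 KO cells was lost on leaving out any library other than TGFβ1 replicate 3 (adjusted p up to 0.123, log2 value at least 0.70). In those fits 3.06% to 4.01% of all genes were called higher, against 7.65% with all libraries. The genotypes did not differ by the test: log2 0.33 ± 0.22 with TGFβ1 and 0.02 ± 0.24 without it (adjusted p = 0.764 and 0.997). The genes with the most similar pattern were Man2b1, Ppp1r13l and Fes (root mean square difference of log2 CPM 0.0865, 0.116 and 0.121, beside an SD of 0.49 for Nfkbie).

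Nfkbia, which encodes IκBα, the inhibitor degraded first and made again soon after activation, was counted at 384, 344 and 245 CPM in PBRM1 KO cells with TGFβ1 and at 278, 253 and 215 CPM in untreated PBRM1 KO cells. The control libraries had 417, 342 and 289 CPM with TGFβ1 and 306, 309 and 283 CPM without it. In both genotypes replicate 3 was the lowest TGFβ1 library and lay among the untreated ones. The TGFβ1 difference was log2 0.37 ± 0.16 in PBRM1 KO cells and 0.22 ± 0.15 in control cells (adjusted p = 0.146 and 0.417). With the replicate number as a block, Nfkbia rose in PBRM1 KO cells (log2 0.36, adjusted p = 0.015), and it was also called there without the filter on low counts (adjusted p = 0.016). Without both TGFβ1 replicate 3 libraries it was higher by log2 0.52 in PBRM1 KO cells and 0.33 in control cells (adjusted p = 0.00256 and 0.0433). Without TGFβ1 all 3 PBRM1 KO libraries lay below all 3 control libraries, by log2 −0.27 ± 0.16, which did not pass (adjusted p = 0.822).

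Nfkbib, which encodes IκBβ, an inhibitor with a slower turnover, had 39.7, 37.3 and 37.4 CPM in PBRM1 KO cells with TGFβ1 and 31.5, 32.1 and 31.7 CPM in untreated PBRM1 KO cells. These groups did not overlap, yet the difference of log2 0.25 ± 0.10 did not pass (adjusted p = 0.128). In control cells the groups overlapped, at 32.3 to 37.9 CPM with TGFβ1 and 30.6 to 38.2 CPM without it (log2 0.03 ± 0.10, adjusted p = 0.906).

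Bcl3, an IκB-like nuclear partner of p50 and p52 homodimers, had 13.4, 16.9 and 10.99 CPM in PBRM1 KO cells with TGFβ1 and 10.2, 12.9 and 8.32 CPM in untreated PBRM1 KO cells. For control cells the values were 17.6, 17.6 and 14.6 CPM with TGFβ1 and 14.4, 16.3 and 14.7 CPM without it. Untreated PBRM1 KO libraries all lay below untreated control libraries, as for Nfkbiz, but the difference of log2 −0.53 ± 0.18 did not pass (adjusted p = 0.402), nor did that of −0.28 ± 0.17 with TGFβ1 (adjusted p = 0.727). The TGFβ1 difference was log2 0.38 ± 0.18 in PBRM1 KO cells and 0.13 ± 0.17 in control cells (adjusted p = 0.19 and 0.686). For PBRM1 KO cells it passed once both TGFβ1 replicate 3 libraries were left out (log2 0.51, adjusted p = 0.0352).

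Tnfaip3 encodes A20, a ubiquitin-editing enzyme that switches off the signal above the IκB kinase. It was counted at 59.7, 58.2 and 56.2 CPM in PBRM1 KO cells with TGFβ1 and at 41.2, 55.4 and 64.5 CPM in untreated PBRM1 KO cells, which overlapped. Control libraries gave 83.9, 84.2 and 66.6 CPM with TGFβ1 and 51.3, 62.6 and 53.5 CPM without it, with no overlap. The TGFβ1 difference was log2 0.10 ± 0.14 in PBRM1 KO cells (adjusted p = 0.709) and 0.48 ± 0.14 in control cells, where it missed the threshold (adjusted p = 0.0531) and passed without both TGFβ1 replicate 3 libraries (log2 0.58, adjusted p = 0.00774). It also passed in control cells with all libraries kept under DESeq2 (adjusted p = 0.0262), without the filter (adjusted p = 0.00162) and with the replicate block (adjusted p = 0.0232). With TGFβ1 all 3 PBRM1 KO libraries lay below all 3 control libraries. That difference of log2 −0.44 ± 0.14 did not pass (adjusted p = 0.333, and 0.0431 without the filter), nor did the difference between the TGFβ1 responses (log2 −0.38 ± 0.20, adjusted p = 1.00).

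**Figure D3:**
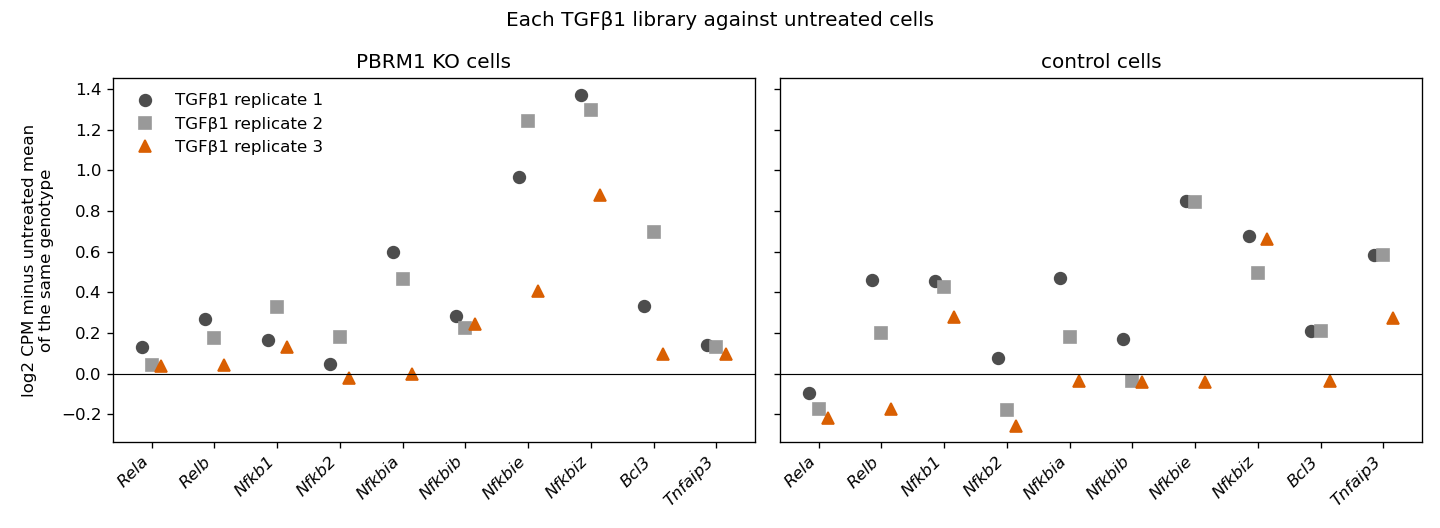
Log2 CPM of each TGFβ1 library minus the untreated mean of the same genotype, for the 10 genes. The median over the genes was 0.28, 0.28 and 0.10 in PBRM1 KO replicates 1, 2 and 3 and 0.46, 0.21 and −0.04 in control replicates 1, 2 and 3; in control replicate 3, Nfkbiz, Nfkb1 and Tnfaip3 were the 3 genes above 0.

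Of the subunits, Nfkb1 alone rose. It encodes p105, which is processed to the DNA-binding subunit p50 and which in its full length also acts as an inhibitor. Nfkb1 (ENSMUSG00000028163) was counted at 165, 162 and 144 CPM in control cells with TGFβ1 and at 123, 128 and 109 CPM in untreated control cells. The groups did not overlap, and the rise was log2 0.39 ± 0.09 (adjusted p = 0.0238). Leaving out any library other than TGFβ1 replicate 3 ended the call (adjusted p up to 0.114), with log2 values of 0.33 or more. Those fits called 1.84% to 3.09% of all genes higher, against 5.89% with all libraries. Without both TGFβ1 replicate 3 libraries the rise was 0.44 (adjusted p = 0.00424). In PBRM1 KO cells Nfkb1 had 134, 147 and 127 CPM with TGFβ1 and 109, 129 and 113 CPM without it, which overlapped. That difference of log2 0.21 ± 0.09 did not pass (adjusted p = 0.175), and the responses of the genotypes were not shown to differ (log2 −0.18 ± 0.13, adjusted p = 1.00). The genes with the most similar pattern were Spcs2, Kctd5 and Yipf5, with a root mean square difference of log2 CPM of 0.0658, 0.0757 and 0.0772 beside an SD of 0.20 for Nfkb1.

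Rela encodes p65, the subunit that carries the activation domain of the classical dimer. It was counted at 102, 94.0 and 92.4 CPM in PBRM1 KO cells with TGFβ1 and at 95.8, 88.0 and 88.3 CPM in untreated PBRM1 KO cells. In the control genotype it had 84.3, 80.3 and 76.6 CPM with TGFβ1 and 98.5, 85.0 and 86.4 CPM without it. In control cells the TGFβ1 libraries were therefore all below the untreated ones, which was not the case in PBRM1 KO cells. The TGFβ1 difference was log2 0.07 ± 0.08 in PBRM1 KO cells and −0.16 ± 0.08 in control cells, and neither passed (adjusted p = 0.618 and 0.221). With TGFβ1 the PBRM1 KO libraries all lay above the control libraries, by log2 0.25 ± 0.08, with an unadjusted p = 0.00829 and an adjusted p = 0.33.

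Relb and Nfkb2 encode the subunits of the non-canonical dimer, RelB and p100, the precursor of p52. Relb spanned 36.1 to 43.7 CPM in PBRM1 KO cells with TGFβ1 and 32.3 to 37.0 CPM in untreated PBRM1 KO cells. In control cells it spanned 29.2 to 46.1 CPM with TGFβ1 and 31.6 to 35.8 CPM without it. The groups overlapped in both genotypes, with replicate 3 again the lowest TGFβ1 library. The TGFβ1 difference was log2 0.16 ± 0.14 in PBRM1 KO cells and 0.18 ± 0.14 in control cells (adjusted p = 0.484 and 0.454). In control cells it was 0.33 without both TGFβ1 replicate 3 libraries (adjusted p = 0.0387). Nfkb2 lay between 79.8 and 108 CPM in all 12 libraries. Its TGFβ1 difference was log2 0.07 ± 0.09 in PBRM1 KO cells and −0.11 ± 0.09 in control cells, and its genotype difference 0.15 ± 0.09 with TGFβ1 and −0.03 ± 0.09 without it, with no call in any of the 4 (lowest adjusted p = 0.503).

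Of the remaining family members, the subunit gene Rel and the genes Nfkbid and Nfkbil1, 0 of 3 passed in any comparison, with or without both TGFβ1 replicate 3 libraries (in the fit of all libraries, 0 at an unadjusted p below 0.05 with TGFβ1 in either genotype, 1 between genotypes without TGFβ1). Rel, which encodes c-Rel, averaged 12.5 ± 1.97 CPM in PBRM1 KO cells with TGFβ1, 13.1 ± 1.16 CPM in untreated PBRM1 KO cells, 12.9 ± 2.39 CPM in control cells with TGFβ1 and 13.3 ± 2.08 CPM in untreated control cells (SD, n = 3).

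The rest of the pathway was read from lists chosen with earlier results of these data known, so their direction is not independent evidence. Among 13 tested ligands and receptors 4 rose and 0 fell with TGFβ1 in each genotype, beside the 7.65% of all genes called higher in PBRM1 KO cells and 5.89% in control cells. In PBRM1 KO cells these were Il1a, Cd40, Il1rap and Il1b; in control cells they were Il1a, Il1rap, Cd40 and Il1r1. With both TGFβ1 replicate 3 libraries left out, 7 rose in each genotype (16.0% and 13.9% of all genes), Tnfrsf1b and Tlr2 being added in both, Il1r1 in PBRM1 KO cells and Il1b in control cells. Without TGFβ1, Il1a and Il1b were 2 of the 13 that were lower in PBRM1 KO cells, and both were lower with TGFβ1 too (0.236% and 0.2% of all genes called lower). Cd40 was, in that smaller set of libraries, also called lower in PBRM1 KO cells, at log2 −2.08 without TGFβ1 (adjusted p = 0.00639) and −0.70 with it (adjusted p = 0.041), and Tnfrsf11a was called higher without TGFβ1 (adjusted p = 0.0495). The comparison without TGFβ1 loses no library in that set, where 1.02% of all genes were called lower and 0.393% higher. Il1a, which encodes the NF-κB activator interleukin 1α, averaged 90.5 ± 7.98 CPM in PBRM1 KO cells with TGFβ1 and 493 ± 135 CPM in control cells with TGFβ1, and 6.80 ± 2.14 CPM in untreated PBRM1 KO cells and 107 ± 29.1 CPM in untreated control cells (SD, n = 3). Tnf was counted at 0.633 CPM or less in every library and was not tested. Of 7 kinases, among them the IκB kinase genes Chuk, Ikbkb and Ikbkg, 0 passed in any comparison (at an unadjusted p below 0.05, 0 with TGFβ1 in PBRM1 KO cells, 2 in control cells, and 1 and 2 between genotypes with and without TGFβ1). In the fit that omits both TGFβ1 replicate 3 libraries 1 rose with TGFβ1 in PBRM1 KO cells (Map3k14) and 2 in control cells (Map3k14 and Tbk1). That fit called 16.0% of all genes higher in PBRM1 KO cells and 13.9% in control cells. Without TGFβ1 1 was higher (Map3k14) and 1 lower (Ikbke) in PBRM1 KO cells, again in a comparison that loses no library. There 0.393% of all genes were called higher and 1.02% lower.

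Among 20 adaptors and ubiquitin ligases, Birc3, a ubiquitin ligase of the receptor complex and an NF-κB target, rose with TGFβ1 by log2 0.87 ± 0.19 in PBRM1 KO cells and 0.71 ± 0.19 in control cells (adjusted p = 0.0125 and 0.0362). Traf1 fell by 0.44 on the log2 scale in control cells (adjusted p = 0.0437). No other adaptor of the 20 was called with TGFβ1: 1 was higher in PBRM1 KO cells, and 1 higher and 1 lower in control cells. Of all genes, 7.65% were called higher and 3.72% lower in PBRM1 KO cells, and 5.89% and 2.91% in control cells. Among 11 other brakes of the pathway, 2 rose with TGFβ1 in PBRM1 KO cells and 3 in control cells, and 0 fell, beside 7.65% and 5.89% of all genes called higher. Tnip1, which encodes an A20-binding partner, rose by log2 0.86 ± 0.15 in PBRM1 KO cells and 0.77 ± 0.15 in control cells (adjusted p = 0.00381 and 0.00887). Zc3h12a, which encodes the RNase Regnase-1, rose by log2 2.02 ± 0.33 in PBRM1 KO cells and 1.25 ± 0.29 in control cells (adjusted p = 0.00239 and 0.0193). Regnase-1 is known to degrade Nfkbiz messenger RNA. The remaining gene in control cells was Tnip3, at low levels (1.37 ± 0.23 CPM with TGFβ1 and 0.54 ± 0.16 CPM without it). No gene of these 2 lists passed between the genotypes (0 of 20 and 0 of 11; 1 and 2 at an unadjusted p below 0.05 without TGFβ1, 2 and 4 with it). Untreated Zc3h12a nevertheless had 3.20, 3.28 and 3.61 CPM in PBRM1 KO cells and 9.13, 11.6 and 9.47 CPM in control cells, with no overlap (log2 −1.58 ± 0.34, adjusted p = 0.0841). In the edgeR fit without the 2 TGFβ1 replicate 3 libraries the adjusted p was 0.00416, although no untreated library was removed. That fit called 1.02% of all genes lower between untreated genotypes, against 0.236% in the fit of all libraries. Without those 2 libraries 3 adaptors rose and 1 fell with TGFβ1 in PBRM1 KO cells, and 2 rose and 1 fell in control cells. Of the brakes, 2 rose in PBRM1 KO cells and 7 in control cells. That fit called 16.0% of all genes higher and 12% lower in PBRM1 KO cells, and 13.9% and 10.0% in control cells. The genotype comparison with TGFβ1 then had 1 brake called lower in PBRM1 KO cells, Tank (adjusted p = 0.039), beside 0.386% of all genes. With the replicate block and all libraries, 2 adaptors were called with TGFβ1 in PBRM1 KO cells, 1 higher and 1 lower. There 12% of all genes were called higher and 7.84% lower. Between genotypes with TGFβ1, 1 kinase and 1 brake were called lower with the block, beside 0.778% of all genes.

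Among 28 tested NF-κB target genes 11 rose and 0 fell with TGFβ1 in PBRM1 KO cells, and 10 rose and 1 fell in control cells, with median log2 changes of 0.50 and 0.38, beside 7.65% of all genes called higher and 3.72% lower in PBRM1 KO cells and 5.89% and 2.91% in control cells. When both TGFβ1 replicate 3 libraries were omitted, 14 rose and 4 fell in PBRM1 KO cells (16.0% and 12% of all genes), and 14 rose and 2 fell in control cells (13.9% and 10.0%). In the comparison of genotypes 0 were higher and 7 lower in PBRM1 KO cells with TGFβ1, and 0 were higher and 8 lower without it, with medians of −0.50 and −0.73, where 0.2% and 0.236% of all genes were called lower. In the same smaller set, 8 were lower with TGFβ1 and 12 without it (0.386% and 1.02% of all genes). The 12 come from a comparison that loses no library by the omission. By p, the first 4 to rise with TGFβ1 were Plau, Mmp9, Ccl20 and Il23a in PBRM1 KO cells and Plau, Mmp9, Lcn2 and Ptgs2 in control cells, where the chemokine gene Cxcl5 fell. Plau, the urokinase gene, rose by log2 1.30 in PBRM1 KO cells and 1.13 in control cells. Between genotypes the first 4 were Lcn2, Csf3, Nos2 and Slpi with TGFβ1, and Lcn2, Ccl20, Csf3 and Nos2 without it. Lcn2, lipocalin 2, had 4.34, 3.68 and 5.18 CPM in PBRM1 KO cells with TGFβ1 and 56.4, 66.4 and 128 CPM in control cells with TGFβ1 (log2 −4.25 ± 0.32, adjusted p = 7.00e-05). Without TGFβ1 it had 0.71, 1.09 and 1.39 CPM in PBRM1 KO cells and 24.4, 37.4 and 33.8 CPM in control cells (log2 −4.90 ± 0.40, adjusted p = 6.08e-05). Csf3, which encodes granulocyte colony-stimulating factor, was lower by log2 −1.43 ± 0.20 with TGFβ1 (adjusted p = 0.0104) and was also called lower without it (adjusted p = 0.00746). The comparisons of genotype with and without TGFβ1 share no library, while each shares its libraries with a TGFβ1 comparison.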

How the data were processed

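RNA from 12 cultures of 4T1 cells was read by 3′ end counting with molecular identifiers, per the labels' protocols. The deposited table holds expected counts per gene, of which 91.8% are whole numbers, and CPM values made by the authors from them; the largest difference from CPM recomputed from the counts was 4.85e-06 CPM. The submitters' processing notes name the build mm39, STAR 2.7.11, featureCounts, Subread 2.1.1, and also fastp 0.24.0, SAMtools 1.22.1 and edgeR 3.38.4. Levels printed are the deposited CPM, which are not scaled to gene length, so levels are not compared between genes.

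Expected counts were rounded and tested with edgeR 4.0.16 (R 4.3.3): TMM scaling, filterByExpr, 1 quasi-likelihood fit of all 12 libraries, and Benjamini-Hochberg adjustment over 14012 genes. The SE is the log2 fold change divided by the root of its F value. The common biological coefficient of variation was 12.5%, and the fit was tested on simulated data. All members were named; of other lists, up to 4 called genes per direction and comparison by p. Members and lists were chosen with earlier results of these data known. Alternatives were other scalings, no filter, DESeq2 1.42.0, limma-voom 3.58.1, fits of the compared libraries only, the replicate number as a block, and libraries left out.

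Replicates share numbers across groups. The deviations of same-numbered libraries from their group means had correlations of 0.201, 0.139 and 0.202 in the TGFβ1 comparison of PBRM1 KO cells, and of 0.396, 0.416 and 0.726 between genotypes with TGFβ1. The other comparisons each had a value under 0.1. The calls reported for all comparisons are from the fit without pairing, and the fit with the replicate number as a block is 1 of the alternatives.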

Additional observations from a re-analysis of the deposited data

How the results depend on the processing

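Of 750 values of single members under the alternatives, 714 kept their side of the threshold, 19 lost the call and 17 gained it. Of the 714, 24 changed sign while uncalled, and 0 values that were called in either fit reversed. With TGFβ1 in control cells 2 members were called (5.89% of all genes called higher), all higher here and in what follows, against 4 without the filter on low counts (4.18% of all genes tested there called higher), 4 with the replicate block (10.8%), 6 without both TGFβ1 replicate 3 libraries (13.9%) and 3 with DESeq2 (6.52%). When 1 library was left out 0 to 4 were called. The share was then 10.4% without TGFβ1 replicate 3 and 1.84% to 3.09% without any other library. With TGFβ1 in PBRM1 KO cells 2 were called (7.65%), against 3 without the filter (4.47%), 3 with the replicate block (12%), 4 without both TGFβ1 replicate 3 libraries (16.0%) and 1 to 3 when 1 library was left out. Between genotypes without TGFβ1, 1 was called lower (0.236% of all genes), and 0 or 1 when 1 library was left out (0.0558% to 0.168% of all genes called lower). With TGFβ1, 0 were called, and 1 (Tnfaip3, lower) without the filter, where 0.539% of all genes were called lower. The cause of these changes was not tested. In the comparisons with every correlation above 0.1 the replicate block changed the call of Nfkbia with TGFβ1 in PBRM1 KO cells (edgeR adjusted p = 0.015, against 0.146 without the block) and of no other member. In the others the deviations correlated at 0.258, −0.0835 and 0.137 for TGFβ1 in control cells and 0.149, 0.0690 and 0.125 for the genotypes without TGFβ1. The labels give only a shared number, and so few correlations cannot decide whether the libraries are paired. With TGFβ1 in control cells the block changed the calls of Nfkbie and Tnfaip3 (edgeR adjusted p = 0.0269 and 0.0232, against 0.125 and 0.0531 without it). Fits of the compared libraries alone give no test of the difference between responses. With 3 libraries a group, small differences in members such as Nfkb2 cannot be resolved.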
